A study of Mus musculus with 2 samples.

Results

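The loci of 9 genes that encode transcription factors of pancreatic β-cells were examined for genomic regions that were enriched by anti-HB9PO4, an antibody to the phosphorylated form of HB9. The genes were Pdx1, Nkx6-1, Mnx1, Neurod1, Nkx2-2, Foxa2, Pax6, Mafa and Isl1. For each gene the locus was the 200 kb of mm9 that reach 100 kb to either side of a point at the gene, given to the nearest 10 kb, and every peak overlapping that stretch was taken. This selected 65 of the 83676 peaks in the authors' list. The genome-wide list came from chromatin immunoprecipitation and sequencing (ChIP-seq) in MIN6-4N cells, a mouse insulinoma line, that is, a tumour line of insulin-secreting cells. The cultures behind both libraries had been transfected with the plasmid pcDNA3.1-myc-his-HLXB9 by lipofectamine 2000, and their chromatin dates from 48 hours after that step. The share of cells that took up the plasmid is not known here. There was 1 library from the immunoprecipitation with anti-HB9PO4 and 1 input library without antibody, both from these transfected cultures. Chromatin from untransfected cells or with a control antibody was not analysed here, so whether a peak needs the overexpression or the phosphorylated protein was not tested. Peak data hold no expression values, and the β-cell label was therefore not checked against marker genes.

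HLXB9 is another name of HB9 or MNX1, the protein encoded by Mnx1, and is a homeodomain transcription factor of β-cells and motor neurons. In β-cells it works within a network of transcription factors that regulate one another and the genes of insulin production and secretion, and many of these factors bind far from the genes they control. Homeodomain proteins commonly recognise short sequences built on TAAT. Of the 9 genes, 6 encode homeodomain proteins (Pdx1, Nkx6-1, Mnx1, Nkx2-2, Pax6 and Isl1). Neurod1 encodes a basic helix-loop-helix protein, Foxa2 a forkhead protein and Mafa a basic leucine zipper protein.

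The loci ranged from none to 16 peaks. Pax6 held the most peaks, 16, and stood far above the stretches around it, whereas Foxa2 held none and lay inside one of the longest peak-free stretches of chromosome 2. Pdx1, Mafa, Nkx6-1, Mnx1 and Isl1 held 7 to 12 peaks, and Neurod1 and Nkx2-2 held 2 and 1. The factor's own gene, Mnx1, held 7 peaks, the same number as the median window of its chromosome. The share of the 9 loci with more peaks than the median window of their chromosome was close to that of all windows. Since each kind of library was made once, the values below carry no replicate error and nothing was tested between libraries.

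Sequence upstream of 3 of the genes is shown because they mark the extremes of the peak counts and the factor's own gene. Pax6 had the most peaks, Foxa2 had none, and Mnx1 encodes HLXB9 itself. Each run holds the 250 bases before the transcription start farthest upstream, written 5′ to 3′ on the strand of the gene, from RefSeq on build GRCm38.p6. Their positions are chr2:105668646-105668895 on the plus strand for Pax6, chr2:148046970-148047219 on the minus strand for Foxa2 and chr5:29478471-29478720 on the minus strand for Mnx1. These positions belong to another build than the mm9 peaks and were not compared with them, so it was not determined whether any of these bases lies under a peak. Capitals mark TAAT on either strand, which reads as ATTA when it lies on the other strand.
Pax6: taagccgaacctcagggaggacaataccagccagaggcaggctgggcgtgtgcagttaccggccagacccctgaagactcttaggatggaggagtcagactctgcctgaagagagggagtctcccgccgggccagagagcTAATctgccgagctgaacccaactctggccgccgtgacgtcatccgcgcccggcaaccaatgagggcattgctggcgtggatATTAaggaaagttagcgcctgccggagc
Foxa2: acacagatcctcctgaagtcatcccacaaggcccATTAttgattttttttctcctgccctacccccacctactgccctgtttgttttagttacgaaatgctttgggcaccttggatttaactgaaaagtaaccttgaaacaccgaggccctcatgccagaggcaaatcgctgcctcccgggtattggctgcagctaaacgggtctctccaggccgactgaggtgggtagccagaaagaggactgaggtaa
Mnx1: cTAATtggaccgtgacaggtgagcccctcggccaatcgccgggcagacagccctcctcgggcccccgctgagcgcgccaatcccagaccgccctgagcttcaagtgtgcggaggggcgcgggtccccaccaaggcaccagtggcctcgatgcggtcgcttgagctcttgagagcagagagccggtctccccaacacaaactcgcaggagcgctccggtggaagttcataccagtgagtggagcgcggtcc
TAAT, read on both strands, occurred 2 times in the Pax6 run, 1 time in the Foxa2 run and 1 time in the Mnx1 run. The table held 11 starts for 8 of the 9 genes, Mafa being the one not matched. TAAT was found upstream of 7 of these 11 starts, beside 54.9% of all 32851 starts. The longer palindrome TAATTA, which contains TAAT, was found upstream of none of the 11, beside 4.84% of all starts. These matches describe letters and mark no binding site.

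A count of peaks can be read only against the density of the chromosome, since a 200 kb window held a median of 3 peaks on chromosome 2 and of 7 on chromosomes 5, 13 and 15. Each locus was therefore set beside all consecutive 200 kb windows between the first and last peak of its chromosome, 2724 windows on the 4 chromosomes. Of the 9 loci, 4 held more peaks than the median window of their chromosome (Pax6, Pdx1, Mafa and Nkx6-1), and 46.8% of all windows did so. No peak was found in 1 of the 9 loci, against 5.21% of windows. With 9 loci, neither share stands apart from that of the chromosomes. Among homeodomain genes 3 of 6 were above the median, with 1 to 16 peaks, and among the others 1 of 3, with 0 to 11 peaks. The median was 8 peaks at the homeodomain genes and 2 at the others, and the ranges overlapped, with Pax6 and Pdx1 above every locus of the other classes. These are raw counts. Neurod1 and Foxa2 lie on the sparser chromosome 2 and Mafa on chromosome 15. Of the homeodomain genes, Pax6 and Nkx2-2 also lie on chromosome 2, and Pdx1, Nkx6-1, Mnx1 and Isl1 on chromosomes 5 and 13. On chromosome 2 the homeodomain loci held 16 and 1 peaks, and Neurod1 and Foxa2 held 2 and 0. Class and chromosome thus overlap in part, and a difference between the classes was not tested.

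**Figure D1:**
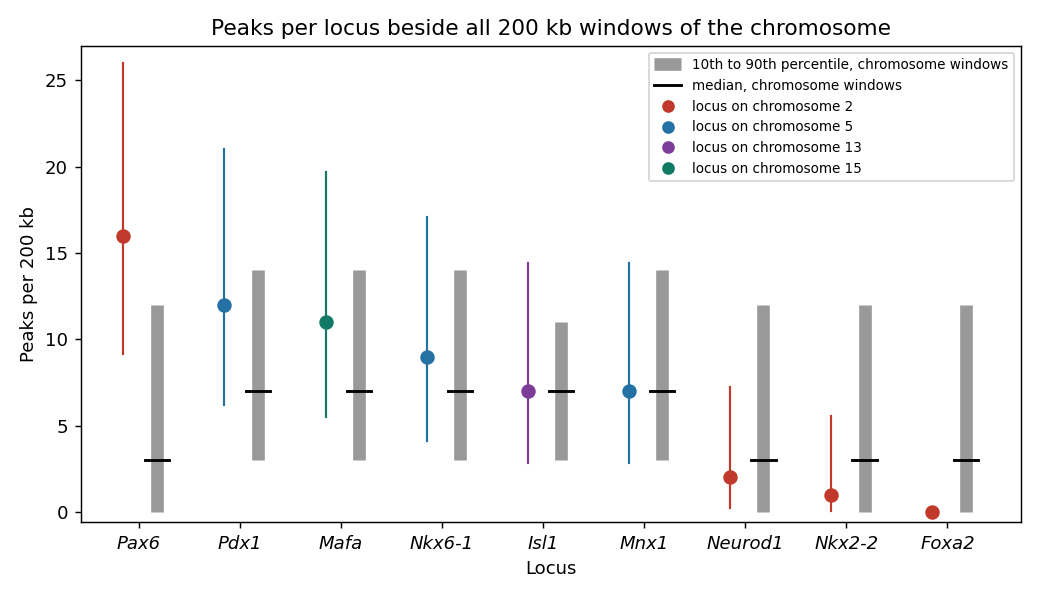
Points show the number of peaks in each 200 kb locus with its 95% Poisson interval (no interval is drawn at 0), and grey bars and black lines the 10th to 90th percentile and the median of all 200 kb windows of the same chromosome. Pax6, with 16 peaks, lies above the grey bar of chromosome 2, where 30 of 892 windows held more, and the other 8 loci lie within theirs. Each bar leaves out the windows beyond its percentiles by definition, so a locus outside it does not by itself set the loci apart.

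In order of peak number, Pax6 (16 peaks, 95% Poisson interval 9.15 to 26) was followed by Pdx1 (12, interval 6.2 to 21), Mafa (11, interval 5.49 to 19.7) and Nkx6-1 (9, interval 4.12 to 17.1). Isl1 and Mnx1 came next with 7 each (interval 2.81 to 14.4), then Neurod1 with 2 (0.242 to 7.22), Nkx2-2 with 1 (0.0253 to 5.57) and Foxa2 with none. No pair of neighbours in this order was apart beyond counting error. The interval of Pax6 was above those of Neurod1 and Nkx2-2, and that of Pdx1 was above that of Nkx2-2. For Foxa2 the interval was 0 to 3.69, below those of Pax6, Pdx1, Mafa and Nkx6-1. These intervals cover counting error alone and are too narrow where peaks cluster. Covered length gave a somewhat different order. Peaks covered 6.07% of the Mafa locus, 5.17% of Pdx1, 4.86% of Pax6, 3.56% of Mnx1, 3.24% of Nkx6-1, 2.90% of Isl1, 0.489% of Neurod1 and 0.237% of Nkx2-2. Over all 9 loci 53.1 kb, or 2.95%, lay under peaks, where the mean window ranged from 1.51% on chromosome 2 to 3.19% on chromosome 5. The median window was covered to 0.867% on chromosome 2, 2.6% on 5, 2.15% on 13 and 2.27% on 15. By covered share 6 of 9 loci were above the median window of their chromosome. By definition, about as many windows lie above a median as below it, so this count does not set the loci apart. Pax6 was above 94.1% of the windows of chromosome 2. Mafa was above 86.6% of those of chromosome 15, but above 60.5% of those beyond 72 Mb.

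**Figure D2:**
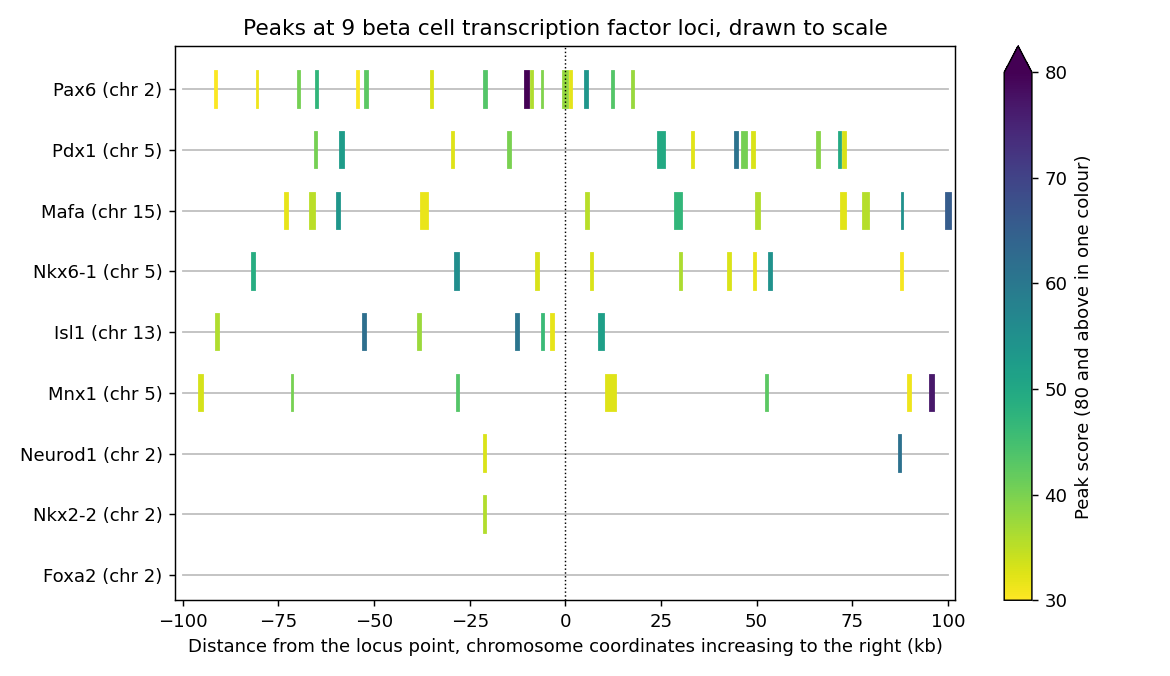
Each row is a locus, each bar a peak drawn at its width, with the distance from the locus point in kb on the horizontal axis and the peak score as colour. At Pax6, 6 of 16 peaks lie within 10 kb of the point, at Pdx1 none of 12 does, and Foxa2 has no peak.

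Pax6, a paired-domain and homeodomain factor needed for the expression of islet hormone genes and for eye development, was the locus that differed most from its surroundings. It held 16 peaks where the median window of chromosome 2 held 3. Of the 892 windows of chromosome 2, 852 (95.5%) held fewer peaks and 30 held more. Of the 100 windows centred within 10 Mb of the point, 99.0% held fewer. The 10 windows of 200 kb around it, 5 on each side, held between 0 and 9 peaks with a median of 3. None of these 10 held as many peaks as the window at the gene. Rcn1 and Immp1l are the coding genes to either side.

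The Pax6 peaks were also arranged unevenly inside the locus. All lay between 91.4 kb below the point and 17.6 kb above it. Beyond the last, at chr2:105527323-105527878, no peak was called for 182 kb. The RefSeq table places Pax6 on the plus strand, so 11 of the 16 peaks were upstream of the point and 5 downstream. Within 10 kb of the point lay 6 of them. One, at chr2:105509424-105510771, covered the point itself, was 1348 bp wide and scored 38.0. Because the point is given to the nearest 10 kb, the side of the closest peaks relative to the gene start is not known. For the same reason, a peak over the point need not lie over that start. In the gene order of GRCm38.p6, Pax6 overlaps Elp4, a subunit gene of the Elongator complex, and the RNA gene Pax6os1, so peaks here cannot be given to 1 gene.

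The highest score of all 9 loci also belonged to Pax6. Each score was set by the authors' caller and is taken as −10 log10 of a p-value, so the lowest score in the list, 30, equals 1e-03. The peak at chr2:105499438-105500567, centred 10.0 kb below the point, scored 119.2 and was 1130 bp wide. Its score was above 99.2% of the whole list. On chromosome 2, 31 of 4448 peaks scored higher, and within 1 Mb of the point none of the 50 peaks did. It was the single peak with a score of at least 100 in the 9 loci, so 1 of 9 loci held such a peak, against 9.77% of windows. The other Pax6 peaks were weaker, the next reaching 53.7, and 9 of the 16 scored below 40. That share, 56.2%, was close to the 54.3% in the rest of chromosome 2. Counting peaks with a score of at least 50 alone, Pax6 held 2 while Mafa and Isl1 held 3 each, so the first place of Pax6 rests on peaks with lower scores. They were narrow, with a median of 552 bp, the same as the rest of chromosome 2 (552 bp). Neighbouring Pax6 peaks were separated by a median of 5.25 kb.

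Foxa2 and Nkx2-2 lie near each other on chromosome 2, with Pax1 as the nearest protein-coding gene between them in the GRCm38.p6 order. Foxa2 encodes a forkhead pioneer factor that opens chromatin in endoderm and acts upstream of Pdx1. No peak was called at Foxa2 (chr2:147770001-147970000), which was true of 113 of the 892 windows of chromosome 2 (12.7%). The nearest peaks were 428 kb below and 853 kb above the point. This stretch without a peak, chr2:147442351-148722721, was 1.28 Mb long and the second longest of the 4447 on chromosome 2, after one of 2.91 Mb. The median stretch between neighbouring peaks of this chromosome was 16.8 kb. Assembly gaps and sequence to which short reads cannot be mapped were not excluded. Without known depth, an empty stretch says that no region passed the calling limit, and does not show that the factor was missing there. Sstr4, a somatostatin receptor gene, is the next coding gene on the higher side.

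Nkx2-2, a homeodomain factor required to specify β-cells, held 1 peak. It lay at chr2:146978822-146979296, 20.9 kb below the point, and was 475 bp wide with a score of 35.8. Of the peaks of chromosome 2, 62.2% scored higher. The 10 surrounding windows held 0 to 4 peaks, so this locus was as sparse as its surroundings. Nkx2-4, another homeodomain gene, is the nearest coding gene on the lower side, and the RNA gene Nkx2-2os overlaps Nkx2-2. The 10 windows around Nkx2-2 and those around Foxa2 partly cover the same sequence and are not independent.

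Neurod1, a basic helix-loop-helix activator of the insulin gene, was the third sparse locus of chromosome 2, with 2 peaks. Fewer peaks were found in 28.7% of the windows of that chromosome and more in 59.3%. The stronger peak, at chr2:79377287-79377726, was 87.5 kb above the point with a score of 61.4 and a width of 440 bp. The nearer one, at chr2:79268677-79269215, was 21.1 kb below it and scored 32.9. Within 1 Mb of the point 1 of 27 peaks scored above 61.4. Windows around Neurod1 held 1 to 6 peaks, so its count of 2 was within the range of a sparse region. Its coding neighbours are Cerkl and Itprid2.

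**Figure D3:**
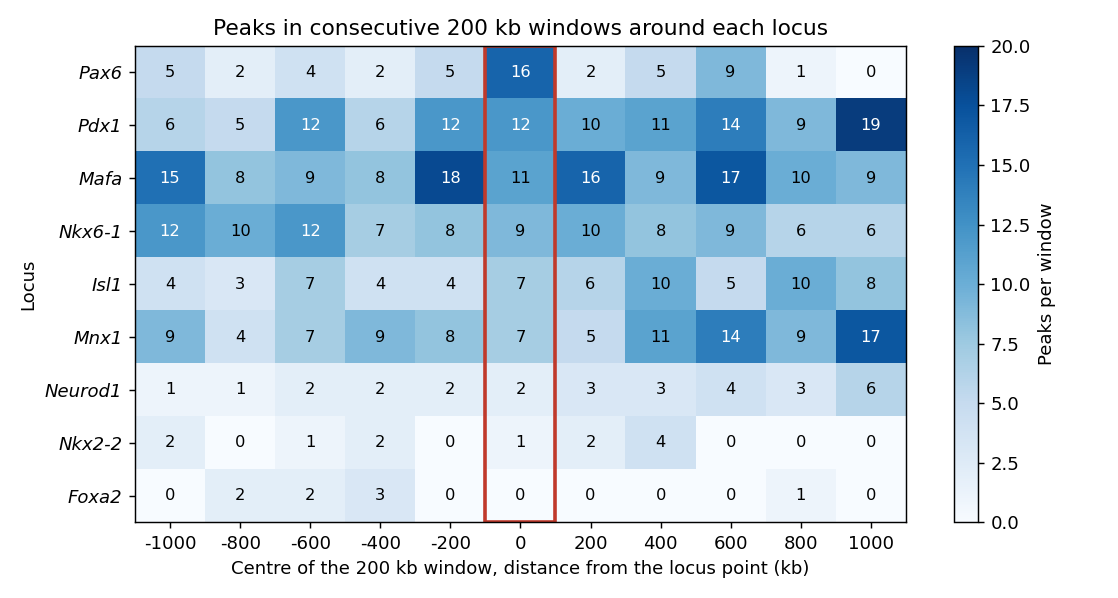
Numbers give the peaks in consecutive 200 kb windows, from 1000 kb below to 1000 kb above each locus point (horizontal axis, kb), and the red frame marks the locus itself. In the Pax6 row the framed window, with 16 peaks, stands above all others of its row, whereas the rows of Nkx2-2 and Foxa2 hold few peaks throughout.

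Set beside the windows that adjoin them, 2 of the 9 loci, Pax6 and Isl1, held more peaks than both neighbours, against 26.9% of windows. Pax6 had 16 peaks between windows with 5 and 2. Isl1 had 7 between windows with 4 and 6, a difference of a few peaks. Mafa, in contrast, had 11 peaks between windows with 18 and 16.

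The genes of chromosome 5 lay in well filled regions. Pdx1, the homeodomain factor without which the pancreas does not form and a direct activator of the insulin gene, held 12 peaks. Of the 746 windows of chromosome 5, 79.0% held fewer and 16.0% more. The adjoining windows held 12 and 10 peaks, and the window 1000 kb above held 19, so counts as high were found nearby. No peak lay within 10 kb of the Pdx1 point. The nearest, at chr5:148065008-148065831, was centred 14.6 kb below it. The highest score, 60.9, belonged to chr5:148124349-148125054, 44.7 kb above the point and in a group of 3 peaks between 44.7 and 49.3 kb. By the strand in RefSeq these are downstream of Pdx1, as were 8 of its 12 peaks. Cdx2, a homeobox gene of the intestine, is the next coding gene on that side, and Gsx1, a homeobox gene of the nervous system, on the other. The RNA gene Plut overlaps Pdx1.

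Nkx6-1, a homeodomain factor that maintains β-cell identity and represses genes of other islet cells, held 9 peaks. Of the windows of chromosome 5, 57.1% held fewer and 34.9% more. A pair of weak peaks flanked its point, at chr5:102082505-102083175 and chr5:102096613-102097143, 7.2 kb below and 6.9 kb above, with scores of 33.0 and 32.8. The higher scores lay farther out. They were 55.4 at chr5:102061111-102062192, 28.3 kb below, and 54.7 at chr5:102143272-102144081, 53.7 kb above. Of the Nkx6-1 peaks, 6 of 9 scored below 40 (66.7%), beside 51.4% in the rest of chromosome 5, but this rests on 9 peaks. Its coding neighbours are Gpat3 and the predicted gene Gm42134.

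Mnx1 encodes the immunoprecipitated factor and is needed for the dorsal pancreas and for β-cell maturation. Its locus held 7 peaks, as did the median window of chromosome 5, and 42.4% of windows held fewer. Of the 100 windows within 10 Mb, 21.0% held fewer, so this locus was on the sparse side of its region. No peak lay within 10 kb of the point. The nearest was the widest peak of all 9 loci, 2565 bp at chr5:29810759-29813323, centred 12.0 kb above the point and thus upstream of the gene by its RefSeq strand. It was wider than 99.4% of the list but had a score of 32.5, which 17.2% of peaks fell below. The highest score at Mnx1, 76.8, was 95.9 kb above the point, at chr5:29895272-29896500, and 3 of 87 peaks within 1 Mb scored higher. The coding genes next to Mnx1 are Nom1 and Ube3c.

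Isl1, a LIM homeodomain factor of islet cells and motor neurons, held 7 peaks on chromosome 13, where the median window also held 7. Its peaks were shifted to one side, with 6 below the point and 1 above. By the RefSeq strand the 6 were downstream of the point and the 1 upstream, with the side of the closest peaks uncertain because the point is rounded. Beyond the last peak, at chr13:117098844-117100135, no peak was called for 123 kb. Within 10 kb of the point lay 3 peaks, with scores of 46.2, 31.8 and 51.9. The nearest, the one with 31.8, lay 3.4 kb below it at chr13:117086195-117086926. The highest score was 61.9, at chr13:117037042-117037832, 52.6 kb below the point, closely followed by 60.6 at chr13:117077136-117077985, 12.4 kb below it. With 3 of 7 peaks at a score of 50 or more, Isl1 had a share of 42.9%, beside 23.9% in the rest of chromosome 13, but this rests on 7 peaks. Itga1 and Parp8 are the neighbouring coding genes.

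Mafa, a basic leucine zipper activator of the insulin gene in mature β-cells, held 11 peaks on chromosome 15. Fewer were found in 76.4% of the 501 windows of the whole chromosome. Mafa lies in the part of chromosome 15 beyond 72 Mb, a limit taken from earlier results on this list. Among the 157 windows of that part the median was 11 peaks, against 7 over the whole chromosome, and 45.2% held fewer than Mafa. The Mafa peaks had a median width of 1304 bp, beside 681 bp in the rest of chromosome 15 and 837 bp in the rest of it beyond 72 Mb. The widest, 2015 bp at chr15:75608572-75610586, was 29.6 kb above the point. The nearest, at chr15:75585378-75586125, was 5.8 kb above it and scored 35.3. The highest score, 65.4, belonged to chr15:75679618-75680921, which crosses the edge of the locus and is partly outside it. Rhpn1 and Zc3h3 are the neighbouring coding genes.

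Pooled over the loci other than Pax6, the peaks did not gather at the points. Isl1, with 3 of its 7 peaks within 10 kb of the point, differed from that pooled picture. Of the 65 peaks, 20 had their midpoint within 25 kb of a point, 15 between 25 and 50 kb, 18 between 50 and 75 kb and 12 farther out. Pax6 supplied 9 of the 20 nearest, and the other loci together had 11, 14, 14 and 10 peaks in the same bins. A peak was found within 10 kb of the point at 4 of the 9 loci (Pax6, Isl1, Nkx6-1 and Mafa), against 46.4% of windows of that size. Within 25 kb it was 8 of 9, all but Foxa2, against 72.9%. At the 8 genes with a strand in the RefSeq table, 27 peaks were upstream of the point and 27 downstream. Since the points are given to the nearest 10 kb and gene ends were not used, no peak can be assigned to a promoter. The side of the closest peaks is uncertain for the same reason.

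**Figure D4:**
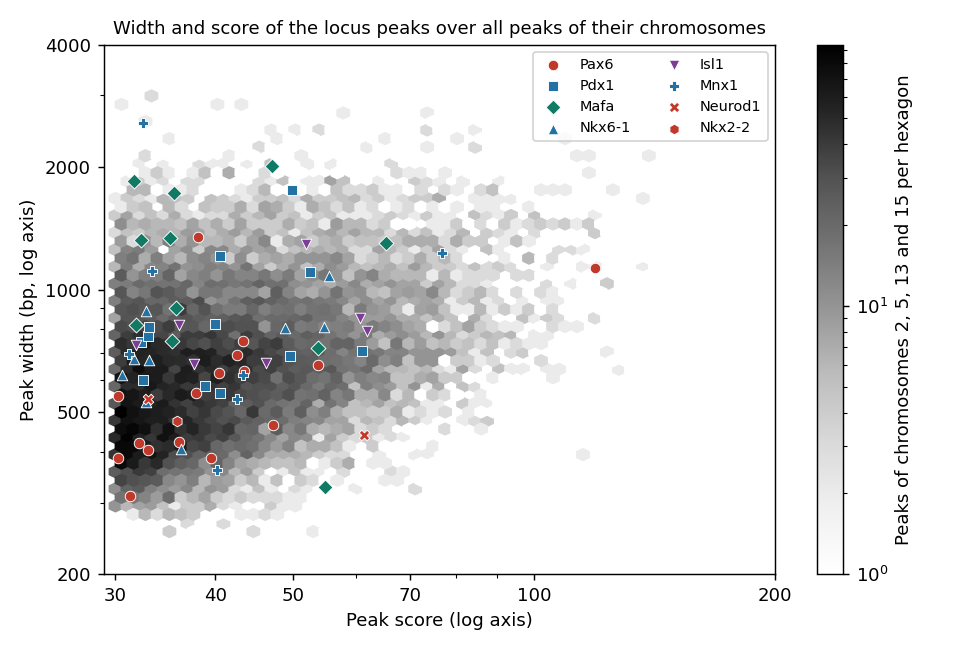
Coloured symbols are the 65 peaks of the loci, with the score on the horizontal and the width in bp on the vertical log axis, over the density of all peaks of chromosomes 2, 5, 13 and 15 that fall within the axes (grey hexagons). Most symbols lie in the dense part of the cloud, while the Pax6 peak with a score of 119.2 and the 2565 bp Mnx1 peak stand apart.

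In score the locus peaks were close to the others of their chromosomes. The median score was 38.0 (interquartile range across peaks 32.9 to 48.9), beside 39.3 (33.7 to 49.4) in the other 18198 peaks of the 4 chromosomes. Of the 65, 14 (21.5%) scored 50 or more, which corresponds to a p-value of 1e-05, as did 24.0% of the others. Such a peak was present at 7 of the 9 loci, all but Nkx2-2 and Foxa2, against 67.5% of windows. Median width was 706 bp, beside 643 bp in the others, and varied among loci from 475 bp at Nkx2-2 to 1304 bp at Mafa. A width of at least 2 kb was reached by 2 peaks (3.08%), the one at Mnx1 and one at Mafa, beside 1.19% of the others. This rests on 2 peaks, and such widths made up 1.94% of the rest of chromosome 5 and 3.79% of the rest of chromosome 15 beyond 72 Mb. Within the loci 25 of 57 neighbouring pairs (43.9%) were within 10 kb of each other, of which Pax6 gave 10 and Pdx1 6. On the 4 chromosomes the share was 36.6%. The 2 shares are not alike, because the locus pairs leave out every stretch that runs past a locus edge. The chromosome pairs keep stretches of any length, which by itself raises the share at the loci.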

How the data were processed

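One list of peaks was deposited. Per the submitters' processing notes, peaks were called with MACS (version written as 1.42) on mm9. The aligner, filters, background model and tag numbers were not given in the sources, so depth is unknown. The authors deposited a score for each peak, without a header, taken as −10 log10 of its p-value. A lowest score of 30 admits weak and chance regions. The list was taken to compare the ChIP with the input, an inference from 1 library of each.

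Peaks overlapping each 200 kb locus by any length were counted, and covered bases were cut at its edges. The order of the points, taken as given, on each chromosome was the same as in the RefSeq table of GRCm38.p6, which served only for gene names, neighbours, strand and the printed sequences. In place of randomly drawn windows, all consecutive 200 kb windows between the first and last peak of a chromosome were used. Members and lists were chosen with earlier results of these data known. All 9 genes were named, with the highest-scoring and the nearest peak of each and the widest of all. Other peaks were chosen after their values were seen. Other β-cell factors were not analysed here. Counts have exact Poisson intervals at 95%. Distances run from the point to the midpoint of a peak, or to the nearest edge for stretches without peaks. Counting and window steps were tested on simulated data. The alternatives tried stand with their effect in the closing section. The tools were matplotlib 3.10.9, pandas 2.3.3, numpy 2.4.6 and scipy 1.17.1 in Python 3.11.15.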

Additional observations from a re-analysis of the deposited data

How the results depend on the processing

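At a minimum score of 50 the 9 loci held 14 peaks in place of 65, covering 0.64% in place of 2.95%. Mafa and Isl1 then led with 3 peaks each and Pax6 had 2, so the first place of Pax6 in the whole list depends on weak peaks. With 50 kb to either side there were 36 peaks covering 3.4%, and Pax6 was first with 10. Joining peaks within 1 kb, counting by midpoint and moving the points by 10 kb left 62 to 64 peaks, with 14 to 16 at Pax6 after joining or moving and none at Foxa2. The number of loci above their chromosome's median was 3 to 6 over all alternatives (4 as reported), among them shifted windows. It was 3 at a minimum score of 50 and 6 when ranked by covered share. Above both adjoining windows were 2 to 3 loci (2 as reported). The shares of all windows, 46.8% and 26.9%, belong to the reported setting alone, so the counts at other settings have no such share beside them. The comparison with windows within 10 Mb, and moved points for adjoining windows, were added after seeing the data. No paired analysis was possible because there is 1 library per group, and for the same reason none could be left out.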
